A study of Rattus norvegicus with 3 samples.

Results

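The 9 genes described here are Sox transcription factors of the embryonic rat cerebral cortex. Sox1, Sox2, Sox3, Sox6, Sox9 and Sox21 are treated as the progenitor set and Sox4, Sox11 and Sox12, the SoxC genes, as the neuron set. They were taken by symbol, and all 9 were found among the 29772 genes of the files. Their unique molecular identifiers (UMIs, each standing for 1 captured transcript) were summed over cell classes in each library.

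The tissue came from wild-type rat embryos, and no strain, treatment or number of embryos is named. Cells were dissociated with papain and profiled with the droplet-based 10x Genomics 3′ assay in 3 libraries labelled E14, E16 and E18, for embryonic days 14, 16 and 18. There was 1 library per label, so no difference between labels has a replicate check and no p-value is given. The protocol text also describes cultured cells, multiplexing oligos and a sort of live human cells, and which of those steps these rat cells went through is not known.

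Sox proteins bind DNA through an HMG box. SOXB1 proteins (Sox1, Sox2 and Sox3) keep neural stem cells undifferentiated, whereas the SOXB2 protein Sox21 can counter them. Sox9 is known for the maintenance of neural stem cells and for the onset of gliogenesis, and the SOXD protein Sox6 for roles in cortical progenitors and in migrating interneurons. SoxC proteins activate genes of neuronal differentiation, and their expression is known to follow the proneural factors. In the cortex, radial glia divide to give intermediate progenitors, and these give the excitatory neurons.

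After filtering, 4286, 4977 and 5431 cells were kept in label order E14, E16 and E18, with medians of 11199.5, 12264 and 10477 UMIs. Between 12 and 17 barcodes were shared by any pair of libraries. Cells were clustered with all Sox genes left out, and classes were named from fixed markers. Radial glia numbered 402, 2914 and 1780 cells, intermediate progenitors 443, 416 and 999, newborn excitatory neurons 1506, 611 and 1993, and maturing excitatory neurons 1831, 0 and 362. The 9 radial glia markers had summed levels in radial glia of 8812, 3331 and 4731 CPM in label order (UMIs per 1000000 UMIs of that class and library).

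Genes that mark early and late stages are out of step with the labels. In radial glia Hmga2, a gene of early progenitors, was at 11.8, 223.2 and 21.4 CPM (labelled E14, E16 and E18). Aldoc, a gene of late radial glia, was at 738.5, 17.1 and 241.6 CPM in the same order. Embryonic globins made up 2.57%, 67.4% and 22.0% of globin UMIs. By these genes the order from early to late would be E16, E18, E14, which goes against the labels. Of the fixed lists of early and late radial glia genes, only Ccnd1, an early gene, placed E18 later than E14. It was at 61.5, 250.7 and 40.6 CPM. Libraries are therefore named by label only, and no direction between them is read as a change with age. Radial glia labelled E14 and E18 lay mostly in clusters 6, 11 and 14, and those labelled E16 in clusters 2, 3 and 5. All 9 radial glia markers were raised in clusters 6, 11 and 14, but only 4, 6 and 7 of them in clusters 2, 3 and 5. Raised means at least 1.2-fold over the mean of the libraries and seen in at least 20% of cells. The name thus rests on fewer markers for radial glia labelled E16.

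RefSeq promoter sequences (GRCr8, from 250 bases before to 50 after the annotated start) were matched for 6 of the 9 genes: Sox2, Sox3, Sox6, Sox21, Sox11 and Sox12. The files' build, mRatBN7.2, is a different one, and nothing was mapped between them. A pair of SOXB1 promoters and that of Sox11 are shown because these genes lie at opposite ends of the lineage below. Capitals mark the E box CANNTG, the site of proneural bHLH factors, and the CCAAT box, searched on both strands. They lie at chr2:119464881-119465180 (Sox2, plus strand), chrX:144346922-144347221 (Sox3, minus strand) and chr6:49738745-49739044 (Sox11, minus strand).
Sox2: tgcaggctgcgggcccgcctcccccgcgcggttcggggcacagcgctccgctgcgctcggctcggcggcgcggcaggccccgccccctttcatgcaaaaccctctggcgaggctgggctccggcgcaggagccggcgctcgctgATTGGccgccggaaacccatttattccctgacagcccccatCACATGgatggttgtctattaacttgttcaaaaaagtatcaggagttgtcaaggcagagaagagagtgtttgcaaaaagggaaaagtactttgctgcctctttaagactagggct
Sox3: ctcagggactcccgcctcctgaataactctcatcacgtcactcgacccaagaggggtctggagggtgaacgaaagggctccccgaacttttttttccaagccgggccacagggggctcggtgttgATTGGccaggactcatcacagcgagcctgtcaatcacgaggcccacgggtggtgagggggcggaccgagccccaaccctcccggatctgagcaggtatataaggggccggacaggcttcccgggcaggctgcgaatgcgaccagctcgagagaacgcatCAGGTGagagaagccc
Sox11: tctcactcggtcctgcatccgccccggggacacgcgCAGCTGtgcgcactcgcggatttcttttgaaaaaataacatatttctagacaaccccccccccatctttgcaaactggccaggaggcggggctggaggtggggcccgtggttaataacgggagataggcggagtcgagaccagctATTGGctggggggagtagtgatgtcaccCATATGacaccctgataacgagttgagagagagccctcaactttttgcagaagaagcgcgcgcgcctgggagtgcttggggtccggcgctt
The Sox2 and Sox3 windows each held 1 E box and 1 CCAAT box, and the Sox11 window held 2 E boxes and 1 CCAAT box. The Sox6 window held 2 and 1, and the Sox21 and Sox12 windows held neither motif. An E box occurs in 72.1% and a CCAAT box in 37.5% of all 33469 promoters of that length, so these matches are common. The SOX core ACAAAG (18.8% of promoters) and its form ACAATG (13.2%) were found in the Sox6 window only, 1 and 2 times. Neither the RBPJ core TGGGAA (25.7%) nor the POU octamer core TGCAAAT (4.05%) occurred in any of the 6 windows. GC content was 84.3% in the Sox12 window and 42.0% in the Sox6 window, against a median of 51.7% over all promoters.

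The first question was how the 9 genes are spread along the excitatory lineage. The 6 progenitor genes were each highest in radial glia, lower in intermediate progenitors and lowest in neurons, in every library. Sox4 and Sox11 were lowest in radial glia in every library. With a threshold of 2-fold on CPM with 1 CPM added, among genes of at least 5 CPM on average over both classes, 6 of 6 progenitor genes were higher in radial glia than in newborn neurons in each library. The same held for 18.0%, 16.4% and 16.8% of all genes in label order. Of the SoxC genes, 2 of 3 (Sox4 and Sox11) were at least 2-fold lower in radial glia, as were 12.4%, 14.3% and 12.5% of all genes. The median log2 ratio of the 6 progenitor genes was 4.24, 3.91 and 4.30, beside 0.14, 0.06 and 0.09 for all genes.

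Among the SOXB1 genes, radial glia had Sox2 at 840.2, 484.1 and 727.6 CPM (labels E14, E16, E18). In intermediate progenitors it had 276.7, 169.9 and 208.4 CPM, and in newborn neurons 12.9, 22.4 and 18.7 CPM. Every radial glia value was above every neuron value. The fold of radial glia over newborn neurons was 65.3 (95% interval 56.1 to 76.5), 21.6 (18.1 to 25.9) and 39.0 (35.0 to 43.5). These and all other intervals cover counting error only. Endothelial, mural and microglial cells had Sox2 at 19.4 CPM, but 3 of these 91 cells held all 41 UMIs, so this mean does not describe the other cells. Erythroid cells had 5.25 CPM, below each neuron level. Over the processing alternatives the log2 ratio labelled E14 ran from 4.82 to 6.34, that labelled E16 from 3.93 to 5.02 and that labelled E18 from 3.99 to 6.06, so the folds are not ranked between libraries.

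Sox1 had 68.0, 45.6 and 49.6 CPM in radial glia and 2.62, 2.69 and 1.75 CPM in newborn neurons. These neuron levels lie inside the interval of endothelial, mural and microglial cells, 0.946 CPM (0.115 to 3.42), so no fold is given. Sox3, the X-linked SOXB1 gene, had 126.2, 141.8 and 167.4 CPM in radial glia and 7.33, 11.1 and 12.1 CPM in newborn neurons. Its folds, 17.2, 12.7 and 13.8, have overlapping intervals.

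Sox21 had 154.5, 68.0 and 110.9 CPM in radial glia and 1.87, 2.87 and 3.38 CPM in newborn neurons. The neuron levels rest on 25, 16 and 62 UMIs and lie inside the interval of endothelial, mural and microglial cells, 1.89 CPM (0.516 to 4.85), so no fold is given. Sox9 had 424.0, 334.1 and 495.8 CPM in radial glia and 21.8, 16.1 and 22.4 CPM in newborn neurons. Its folds labelled E14 and E18 were 19.5 and 22.1, with overlapping intervals. None is given for E16, where the neuron level lies inside the interval of endothelial, mural and microglial cells (7.65 to 17.5 CPM).

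Sox6 went down the lineage more slowly. It had 129.3, 131.6 and 170.1 CPM in radial glia and 90.9, 92.4 and 118.6 CPM in intermediate progenitors. That is a fold of 1.42 (1.27 to 1.60), 1.42 (1.29 to 1.57) and 1.43 (1.35 to 1.53). In newborn neurons Sox6 had 10.7, 29.1 and 26.1 CPM, a fold of radial glia over these cells of 12.1, 4.53 and 6.50. The level labelled E14 is only just above the interval of endothelial, mural and microglial cells, 6.15 CPM (3.27 to 10.5). Labelled E14 and E18, Sox6 also differed widely between newborn neuron clusters (values below), so these folds depend on the mix of neurons. Sox6 thus stayed near its radial glia level in intermediate progenitors, while Sox9 was already 4.04-, 5.28- and 5.33-fold lower there.

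In the step from radial glia to intermediate progenitors, 5, 4 and 5 of the members tested were at least 2-fold higher in radial glia (8.49%, 7.46% and 7.30% of all genes). Sox2, Sox3, Sox9 and Sox21 passed in every library. Sox1 passed in those labelled E14 and E18 and, with a log2 ratio of 0.97, lay just under the threshold in that labelled E16. Sox4 and Sox11 were at least 2-fold lower in radial glia in every library (4.60%, 4.97% and 4.10% of all genes).

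Sox4, a SoxC gene expressed widely in immature neurons, had 801.9, 422.7 and 583.2 CPM in radial glia. In intermediate progenitors it had 2888, 2106 and 2886 CPM, and in newborn neurons 3331, 1596 and 2491 CPM. Most of its difference therefore lay between radial glia and intermediate progenitors. Intermediate progenitors over newborn neurons gave 0.87 (0.85 to 0.88) in the library labelled E14 but 1.32 (1.28 to 1.36) and 1.16 (1.14 to 1.18) in those labelled E16 and E18. The order of these classes thus differed between libraries, but it also depends on which neurons are pooled. Labelled E18, the newborn neuron cluster led by Neurod1 lay above intermediate progenitors and that led by Pcp4 lay below them (values below).

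Sox11 had 46.9, 75.8 and 52.9 CPM in radial glia, 282.2, 418.2 and 317.9 CPM in intermediate progenitors and 627.0, 516.8 and 575.5 CPM in newborn neurons. It increased at both steps in each library, unlike Sox4. Newborn neurons exceeded intermediate progenitors least in the library labelled E16, where the ratio of intermediate progenitors to newborn neurons was 0.81 (0.76 to 0.86), beside 0.45 and 0.55 in those labelled E14 and E18.

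Sox12, the least studied of the SoxC genes, had 4.64, 3.56 and 5.03 CPM in radial glia and 9.87, 6.46 and 7.97 CPM in newborn neurons. The ratio of radial glia to newborn neurons was 0.47 (0.30 to 0.71), 0.55 (0.38 to 0.81) and 0.63 (0.49 to 0.81). Its intervals lie below 1 in each library. The radial glia levels lie inside the interval of endothelial, mural and microglial cells, 2.84 CPM (1.04 to 6.18), so no size is read from these ratios. With 1 CPM added it missed the 2-fold threshold in all 3, with a log2 ratio of -0.95 labelled E14. That ratio became -1.07 with 0.1 CPM added and -1.06 with median-of-ratios scaling, both past 2-fold. So few UMIs were counted that its radial glia and intermediate progenitor levels could not be separated in any library. Levels are not compared between genes, because 3′ counting depends on each gene's annotated end.

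**Figure D1:**
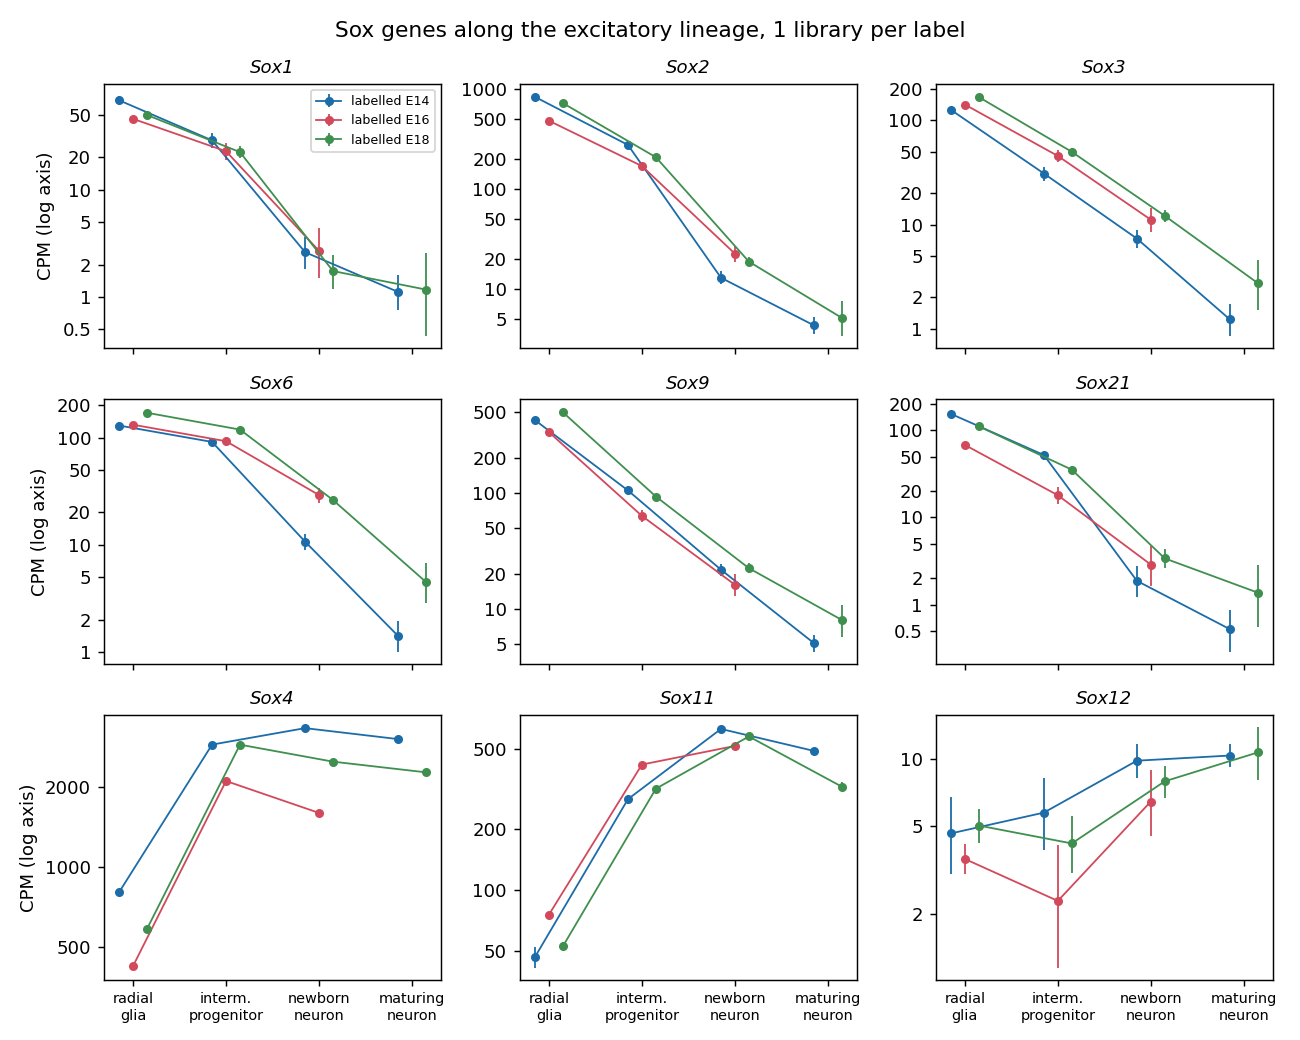
CPM on a log axis (points, with exact Poisson 95% intervals) of the 9 Sox genes in radial glia, intermediate progenitors, newborn and maturing excitatory neurons, with 1 line per library; no maturing neurons were found in the library labelled E16. The 6 progenitor genes go down along the lineage in each library, Sox2 from 840.2 to 12.9 CPM in newborn neurons labelled E14, while Sox4 and Sox11 are lowest in radial glia.

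In maturing neurons, present in the libraries labelled E14 and E18, Sox2 was at 4.3 and 5.1 CPM and Sox9 at 5.1 and 8.0 CPM, lower than in newborn neurons. SoxC levels there remained high, with Sox4 at 3029 and 2270 CPM and Sox11 at 488.4 and 325.1 CPM. None of the SoxC genes differed by 2-fold between newborn and maturing neurons in either library. Sox2, Sox6 and Sox9 were at least 2-fold higher in newborn neurons in both, beside 4.99% and 5.19% of all genes higher and 3.86% and 6.98% lower. Labelled E18, the log2 ratios of Sox2 (1.69) and Sox9 (1.38) turned to -0.63 and -0.17 under a filter of at least 2000 genes and at most 5% mitochondrial UMIs. The Sox2 levels of maturing neurons lie inside the interval of erythroid cells (3.33 to 7.87 CPM). Their Sox9 levels lie below or inside that of endothelial, mural and microglial cells (7.65 to 17.5 CPM). No size is therefore read from the Sox2 and Sox9 ratios.

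Single cells showed how far the sets overlap. Each cell was thinned to 2000 UMIs to remove differences in depth. Sox2 was then seen in 79.3%, 58.5% and 73.0% of radial glia in label order, and in 3.06%, 3.80% and 3.52% of newborn neurons. Endothelial, mural and microglial cells, which should lack the gene, showed Sox2 in 1.10% of 91 cells (0.028% to 5.97%). Erythroid cells showed it in 1.49% of 134 cells (0.181% to 5.29%). The neuron shares lie above both control values but inside both intervals. Without thinning, newborn neurons showed Sox2 in 7.97%, 14.4% and 10.9% of cells at medians of 7804.5, 8627 and 8433 UMIs. The 91 cells showed it in 3.30% at a median of 16473 UMIs, and erythroid cells in 7.46% at 32327.

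Sox9 was seen in 52.6%, 44.5% and 58.5% of radial glia after thinning and in 3.66%, 3.30% and 4.53% of newborn neurons, inside the interval of the same 91 cells (0.028% to 5.97%) but above the upper bound of erythroid cells, where 0 of 134 allow a share of up to 2.72%. Its neuron levels of 21.8 and 22.4 CPM labelled E14 and E18 were above the interval of the 91 cells, 11.8 CPM (7.65 to 17.5), and the 16.1 CPM (13.0 to 19.8) labelled E16 was inside it. Sox4 was seen in 67.0%, 51.6% and 59.9% of radial glia and in 99.7%, 90.9% and 97.3% of newborn neurons. Erythroid cells, at a median of 32327 UMIs, showed Sox4 in 2.99% of 134 cells, and microglia in 10.3% of 29, so the radial glia share is above these. Endothelial, mural and microglial cells together reached 38.5%. Sox11 was seen in 5.54%, 12.5% and 9.35% of radial glia, and in 3.30% (0.685% to 9.33%) of the 91 cells. The share labelled E14 lies inside that interval, and those labelled E16 and E18 lie above it. Without thinning, Sox11 was seen in 38.3%, 55.3% and 44.0% of radial glia and in 22.0% of the 91 cells. Its level labelled E14, 46.9 CPM (41.5 to 52.8), also exceeded the 20.3 CPM (14.7 to 27.4) of those cells. In newborn neurons the Sox11 share was 69.1%, 60.1% and 65.8%.

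Cells with at least 1 progenitor and at least 1 SoxC transcript made up 64.7%, 50.1% and 60.6% of radial glia and 61.5%, 42.0% and 54.5% of intermediate progenitors in label order. In newborn neurons they made up 10.5%, 13.4% and 13.8%. As 99.9%, 95.4% and 98.8% of newborn neurons had a SoxC transcript, these values are nearly the shares with any progenitor transcript, 10.5%, 14.2% and 13.9%. Erythroid cells labelled E16 had a progenitor transcript in 0.806% of 124 cells (0.020% to 4.41%), below the neuron shares. Meningeal cells of that library had one in 17.2% of 93 (10.2% to 26.4%). Of these 93 cells 13 had Sox9, so this share is not used as background. The neuron shares of Sox2 and of Sox9 lie inside the intervals of the 91 endothelial, mural and microglial cells. The neuron shares are therefore not read as overlap. In radial glia, Sox2 and Sox4 were seen together in 53.7%, 30.6% and 44.0% of thinned cells and Sox2 and Sox11 in 5.04%, 7.50% and 7.03%. These shares are set by the thinned depth, at which Sox4 alone was seen in 38.5% of the 91 endothelial, mural and microglial cells and in 2.99% of erythroid cells. Without thinning, Sox2 was seen in 98.0%, 96.0% and 98.0% of radial glia and Sox4 in 96.0%, 94.99% and 96.1%. The 91 endothelial, mural and microglial cells showed Sox4 in 90.1%, at 337.8 CPM. Erythroid cells showed it in 15.7%, at 30.8 CPM and a median of 32327 UMIs. The radial glia share is above both, but these controls differ widely, so the unthinned Sox4 share is not read as overlap. Intermediate progenitors had Sox2 in 77.4%, 61.1% and 69.6% of cells without thinning, so many cells without it below had a Sox2 UMI that was not drawn. Among intermediate progenitors labelled E18, Sox11 was seen in 30.5% of the cells with Sox2 and 44.7% of those without. Among those labelled E16, 31 of 86 cells with Sox2 had Sox11, again a lower share than in the cells without. Labelled E14, the shares were 40.2% and 43.1%.

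The intermediate progenitor clusters show part of this order. Cluster 10 is led by histone genes beside Eomes, cluster 8 by Neurog2 and Eomes, and cluster 15 by mitotic genes such as Ube2c and Cdc20. In the library labelled E18, Sox2 had 258.9 CPM in cluster 10, 229.9 in cluster 8 and 84.1 in cluster 15. Sox11 had 323.3, 197.4 and 500.3 CPM in the same clusters. Cluster 15 was thus lowest in Sox2 and highest in Sox11, and the same was true in the libraries labelled E14 (Sox2 218.2, Sox11 438.7 CPM in cluster 15) and E16 (112.7 and 589.9 CPM). Sox4 differed less, with 2720, 3000 and 3001 CPM in clusters 10, 8 and 15 labelled E18.

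The libraries were then compared as labelled. Over all kept cells, every one of the 9 genes was at least 2-fold apart between the libraries labelled E16 and E14. The 6 progenitor genes were higher in that labelled E16 (11.3% of all genes), with folds from 2.13 (Sox21) to 5.16 (Sox3). The 3 SoxC genes were lower (13.6% of all genes), Sox4 with 612.6 against 2789 CPM. In the library labelled E18, 5 members were at least 2-fold higher than in that labelled E14 (6.73% of all genes): Sox2, Sox3, Sox6, Sox9 and Sox21. Between those labelled E18 and E16 only Sox4 passed, higher in E18 (5.56% of all genes higher, 1.27% lower). Radial glia made up 9.38%, 58.5% and 32.8% of kept cells, and newborn and maturing neurons together most of the library labelled E14. The part of these shares in the sums was not tested, and Sox2 was at 360.8 and 336.4 CPM over all kept cells labelled E16 and E18. With at least 2000 genes and at most 5% mitochondrial UMIs per cell, which left 322 cells labelled E14, 0 members were higher in the library labelled E16 or E18 than in that labelled E14, and 1 was lower labelled E16 than E14, against 3. All of these comparisons share libraries.

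Within radial glia most of these differences were absent or reversed. Of 8 members tested between the libraries labelled E16 and E14, only Sox21 passed 2-fold, and it was lower in that labelled E16 (7.51% of all genes lower, 2.37% higher). Sox2 had a ratio of 0.58 (0.56 to 0.59) and Sox9 of 0.79 (0.76 to 0.82), although both were higher in that library over all cells. The summed radial glia markers were also lower there, at 3331 against 8812 CPM, and their part in the Sox2, Sox9 and Sox21 ratios was not tested. Sox3 had 1.12 (1.04 to 1.21) and Sox6 1.02 (0.94 to 1.10), beside 5.16 and 3.68 over all cells. Sox4 was lower in radial glia labelled E16 as well, with a ratio of 0.53 (0.51 to 0.54), and Sox11 was higher, with 1.62 (1.43 to 1.84). All 8 intermediate progenitor markers were detected in radial glia of each library, with summed levels of 1608, 573.1 and 916.5 CPM in label order, and their part in the Sox4 ratio was not tested. No member passed between those labelled E18 and E16 (2.02% of all genes higher and 0.62% lower) or E18 and E14 (1.00% higher and 3.31% lower). In intermediate progenitors, likewise, only Sox21 passed between those labelled E16 and E14, with a ratio of 0.35 (0.27 to 0.44), beside 7.57% of all genes lower and 3.05% higher.

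**Figure D2:**
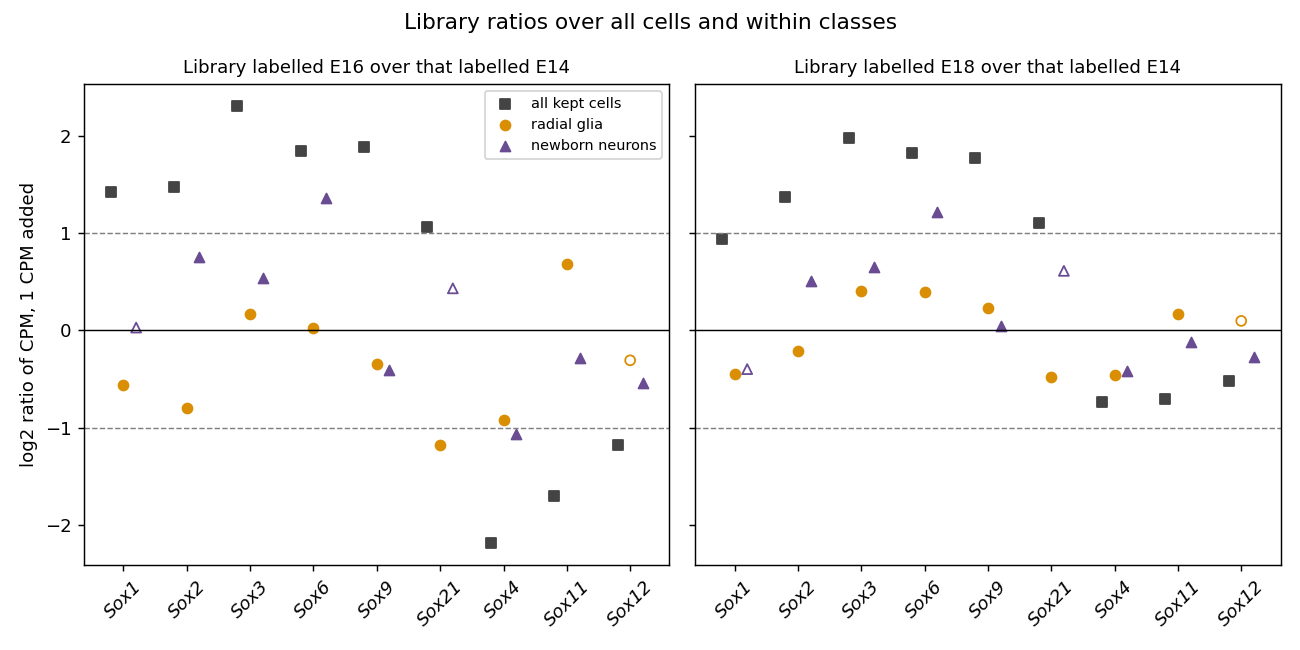
Log2 ratios of CPM with 1 CPM added, for the library labelled E16 (left) and E18 (right) over that labelled E14, in all kept cells (squares), radial glia (circles) and newborn neurons (triangles); open symbols have under 5 CPM on average, and dashed lines mark 2-fold. Squares of the 6 progenitor genes lie above 0, for example Sox3 at a fold of 5.16, while of the filled circles of 8 genes in radial glia only that of Sox21, at 0.44-fold for E16 over E14, is beyond a dashed line.

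The values of Sox21, Sox4 and Sox11 in radial glia moved with the processing. Keeping all doublets also changed which cells were named radial glia, and these effects were not tested apart. With no doublets removed, radial glia labelled E16 numbered 1947 in place of 2914, 1503 cells of that library stayed unnamed, and the log2 ratio of E16 over E14 went from -1.17 to -0.85 for Sox21, from -0.92 to -1.22 for Sox4 and from 0.68 to -0.34 for Sox11. The ratio of Sox11 is thus not settled in direction. Over the 11 alternatives run, Sox21 stayed lower in radial glia labelled E16 than E14, between -1.18 and -0.85.

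The libraries filled the radial glia clusters unequally. Clusters 2, 3 and 5 held 0, 4 and 6 cells labelled E14, and clusters 6, 11 and 14 held 23, 3 and 13 labelled E16, so cluster and label cannot be told apart for those libraries. In clusters 2 (DNA replication genes), 3 (histone genes) and 5 (mitotic genes), which hold most radial glia labelled E16, Sox21 had 43.9, 74.1 and 80.9 CPM in that library. In clusters 6 (led by Aldoc and Mfge8), 11 (histone genes) and 14 (mitotic genes) it had 151.4, 162.5 and 153.8 CPM in the library labelled E14 and 102.8, 137.4 and 109.3 CPM in that labelled E18. The few radial glia labelled E18 that fell in clusters 2 and 3, 62 and 61 cells, had 23.4 and 32.7 CPM. Cells labelled E18 thus had less Sox21 than cells labelled E16 within those clusters, although over all radial glia it was 1.63-fold (1.55 to 1.72) higher. In these clusters the progenitor gene Sox3 went the other way, with 161.1 against 124.6 CPM in cluster 2 and 192.8 against 145.7 CPM in cluster 3.

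Sox2 was also lowest in cluster 2, with 351.1 CPM labelled E16 and 401.0 CPM labelled E18, and highest in cluster 11, with 1074.5 CPM labelled E14 and 895.7 CPM labelled E18. Within clusters 6, 11 and 14 it was higher in the library labelled E14 than in that labelled E18 each time, 721.3 against 606.5 CPM in cluster 6. Sox4 in cluster 6 was at 1040.9 CPM labelled E14 and 652.3 labelled E18, while in cluster 11 the values were 537.0 and 506.1. Sox6 and Sox9 ran the other way in clusters 6, 11 and 14, with Sox9 at 393.8 and 448.0 CPM in cluster 6. Mitochondrial genes took 5.29%, 3.59% and 4.39% of radial glia UMIs in label order and globins 97.4, 534.6 and 222.1 CPM, and their part in these differences was not tested.

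**Figure D3:**
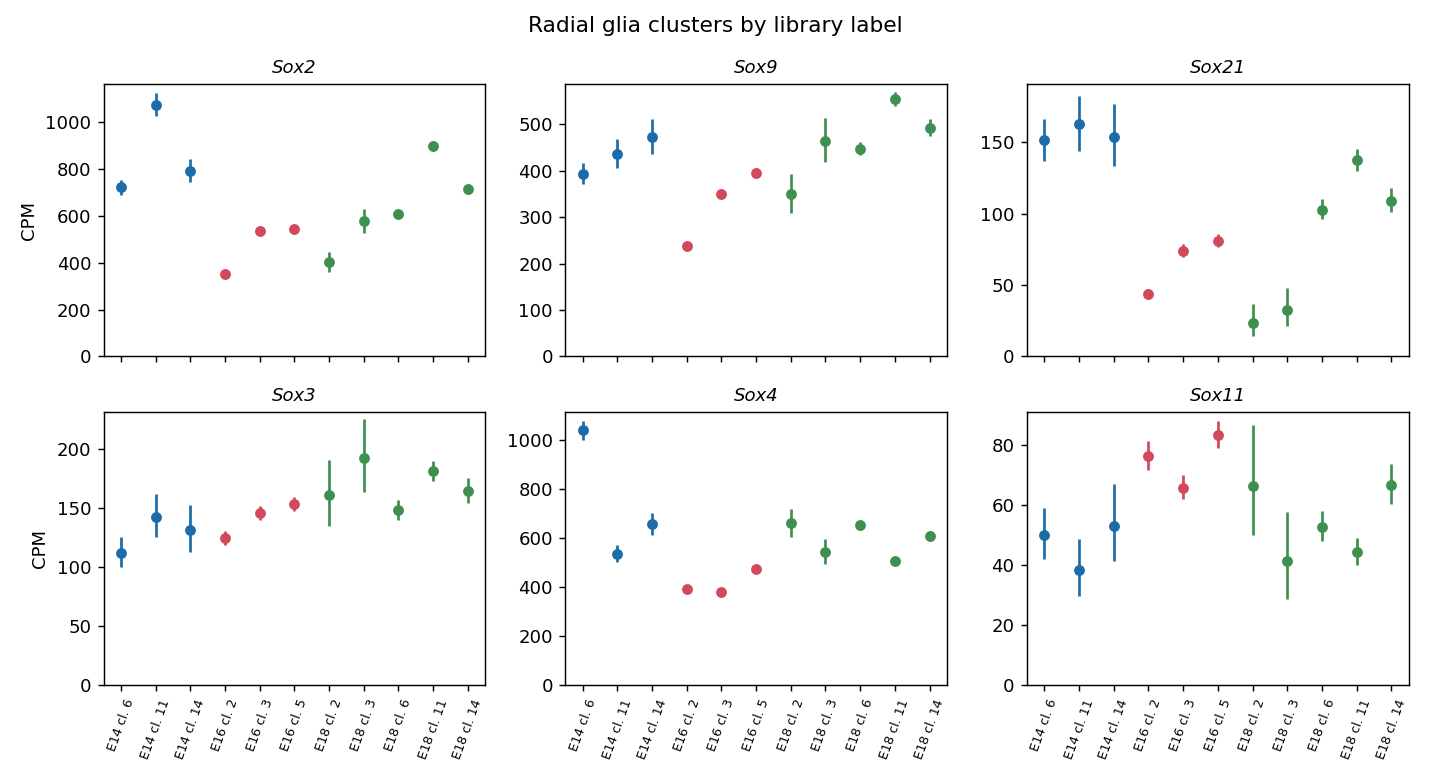
CPM (points, with exact Poisson 95% intervals) of 6 Sox genes in each radial glia cluster and library label with at least 50 cells. Sox21 is between 102.8 and 162.5 CPM in clusters 6, 11 and 14 (labelled E14 and E18) and at or below 80.9 CPM in clusters 2, 3 and 5 (labelled E16, and E18 in clusters 2 and 3), while Sox3 stays between 112.3 and 192.8 CPM.

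Newborn neurons lay in different clusters in each library: 4 and 13 for that labelled E14, 12 for that labelled E16 and 1 and 7 for that labelled E18. Cluster 12 is led by Calb1, Calb2 and Lhx9, and Cajal-Retzius markers summed to 401.6 CPM in newborn neurons labelled E16, beside 11.1 and 17.9 CPM in those labelled E14 and E18. Sox4 was lower in newborn neurons labelled E16 than E14, with a ratio of 0.48 (0.47 to 0.49), beside 4.82% of all genes at least 2-fold lower. When libraries were clustered separately, its log2 ratio went from -1.06 to -0.93, under 2-fold. Sox6 was higher there, with a ratio of 2.72 (2.16 to 3.43), and in those labelled E18, with 2.44 (2.02 to 2.97), beside 4.62% and 1.30% of all genes higher. The log2 ratio of Sox6 went from 1.36 to 0.66 for E16 over E14 when 2 times as many doublets were removed, and from 1.21 to 0.53 for E18 over E14 at Leiden resolution 2, both under 2-fold. Sox6 differed as much between clusters of 1 library: in that labelled E18 it had 61.3 CPM in cluster 7, which is led by Neurod1 and Mfap4, and 4.3 CPM in cluster 1, which is led by Pcp4 and Hpca. In that labelled E14 it had 26.3 CPM in cluster 13 and 3.4 CPM in cluster 4. Sox4 followed the same clusters, with 3407 against 1920 CPM labelled E18 and 4247 against 2932 CPM labelled E14.

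Outside the excitatory lineage the members parted from each other. In the GABAergic lineage (57, 119 and 73 cells), which is led by Dlx and Gad genes, Sox2 was at 511.4, 168.2 and 432.1 CPM and Sox1, known in ventral forebrain, at 118.6, 27.9 and 81.3 CPM. Sox1, Sox2 and Sox6 were at least 2-fold higher there than in newborn excitatory neurons in each library (9.14%, 7.05% and 8.18% of all genes), Sox21 also in those labelled E14 and E16 and Sox9 in that labelled E16. The Sox21 level labelled E14, 10.5 CPM (2.87 to 27.0), rests on 4 UMIs. The Sox9 level was 116.6 CPM (96.1 to 140.2) in cells labelled E16, while those labelled E18 had 18.6 CPM (8.02 to 36.6). Labelled E14, 1 Sox9 UMI was counted, under the 7.91 CPM that 3 UMIs would give. Sox6, known in interneurons from the medial ganglionic eminence, was at 42.2, 101.2 and 178.9 CPM. The cells labelled E16 lay in cluster 22, with Isl1 among its leading genes, and the others in cluster 21, with Sst, so the libraries do not hold the same GABAergic cells.

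In choroid plexus (143 cells labelled E16 and 52 labelled E18) Sox2 was at 284.1 and 179.3 CPM and Sox9 at 134.1 and 228.4 CPM. Sox1 and Sox21 were near background there, at 1.1 and 2.5 CPM and at 0.7 and 0.6 CPM. Compared with radial glia of the same library, 6 members labelled E16 and 7 labelled E18 were at least 2-fold lower in choroid plexus, beside 6.08% and 17.6% of all genes. Cajal-Retzius cells (132 labelled E16 and 68 labelled E18) had Sox4 at 1405 and 1673 CPM and Sox11 at 386.1 and 208.3 CPM, with Sox2 at only 18.0 and 30.7 CPM. Meningeal cells labelled E16 had Sox9 at 52.9 CPM, with Sox2 at 3.95 CPM.

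**Figure D4:**
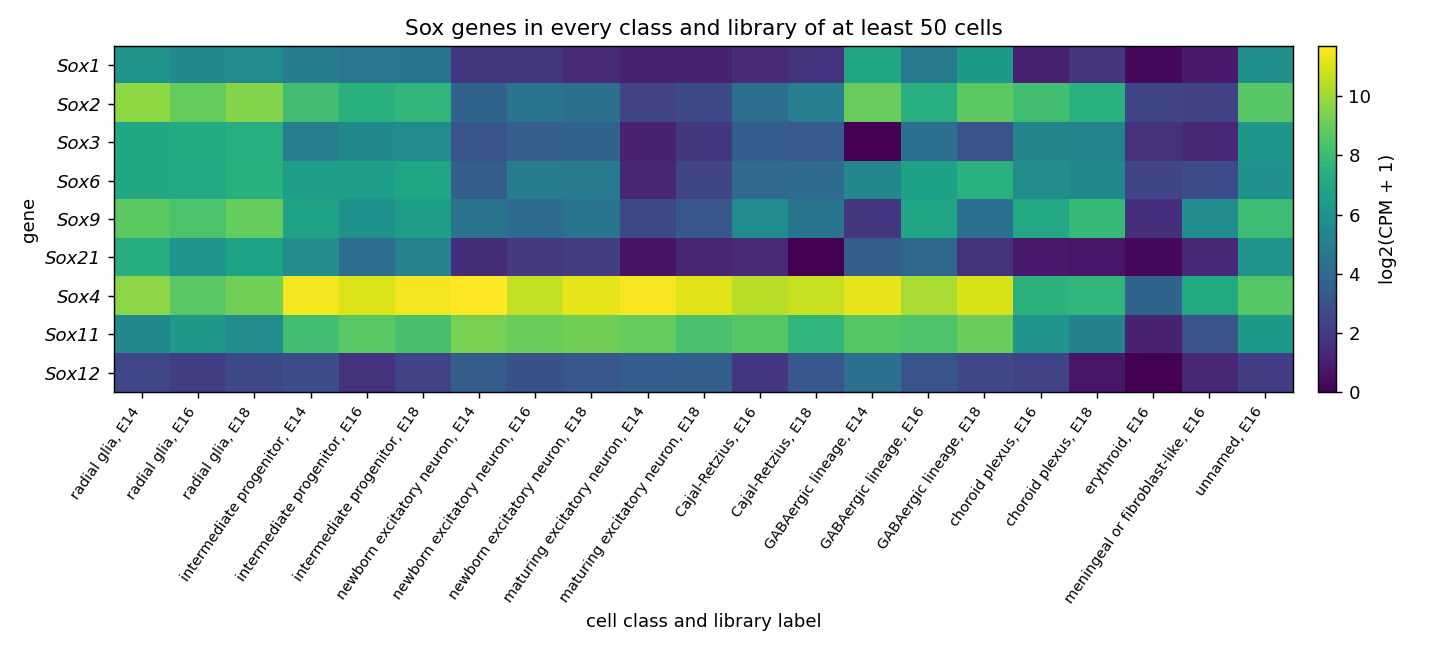
Heat map of log2(CPM + 1) of the 9 Sox genes (rows) in each class and library of at least 50 cells (columns, with the library label; the last holds cells left unnamed). Sox1 and Sox2 are high in radial glia and the GABAergic lineage, Sox2 and Sox9 without Sox1 and Sox21 in choroid plexus, and Sox4 and Sox11 in all neuron columns.

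Over the 20 sums of named classes and libraries with at least 50 cells, the 3 genes most like each member by Pearson's r of log2(CPM + 1) were looked up among 10031 genes, and some of them are named here. These sums share libraries and class definitions, so r is a description only. Sox2 was most like Sox6 (r = 0.93) and Npas3 (0.92), and Sox21 most like Igsf11 (0.96) and Sall1 (0.93). The genes most like Sox1 included Wnt7a (0.91). Sox3 was most like Cdon (0.92), Adgrv1 (0.91) and Sox9 (0.90), and Sox9 like Pals1 and Limd1 (0.94 each). Among SoxC genes, Sox4 was most like Dpysl3 (0.98), and Csnk1e (0.97) was also among its 3. Sox11 was most like Soga3, Sbk1 and Tagln3 (0.97 each) and Sox12 like Chst10, Samd14 and Tubb2b (0.89 each).

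Genes linked to the members were taken from fixed lists that were left out of the clustering. Of 10 SOXB1 partners and targets, 8 of 10 tested were at least 2-fold higher in radial glia than in newborn neurons labelled E14, 7 of 10 labelled E16 and 6 of 9 labelled E18, and none was lower. Over all genes 18.0%, 16.4% and 16.8% were higher. Nes, the intermediate filament of neural stem cells, had 321.8, 223.9 and 365.0 CPM in radial glia and 5.1, 13.8 and 8.7 CPM in newborn neurons. Notch1, a receptor that keeps progenitors from differentiating, had 372.6, 194.7 and 323.3 CPM and 8.3, 12.9 and 12.1 CPM. The POU partner Pou3f2 differed, with 271.5, 51.2 and 131.4 CPM in radial glia and 490.6, 95.1 and 97.9 CPM in newborn neurons. Between radial glia labelled E16 and E14, 2 of 10 were lower (Pou3f2 and Hes5) and none higher, beside 7.51% of all genes lower and 2.37% higher.

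Of 6 SOXC targets, 5 were tested between radial glia and newborn neurons. Tubb3, Dcx and Map2, genes of the neuronal cytoskeleton, were at least 2-fold lower in radial glia in each library, Fezf2 also in that labelled E18, and Tead2 was higher in each. Over all genes 12.4%, 14.3% and 12.5% were lower and 18.0%, 16.4% and 16.8% higher. Tubb3 had 175.1, 144.8 and 107.9 CPM in radial glia and 3153, 2840 and 2573 CPM in newborn neurons. Tead2, a transcription factor of the Hippo pathway, had 137.7, 162.0 and 175.0 CPM and 29.7, 46.8 and 39.9 CPM, the reverse of Sox4 and Sox11. Of the 4 genes linked to SOX9 and NFIA in gliogenesis, Apcdd1 was higher and Mmd2 and Zcchc24 lower in radial glia labelled E16 than E14, beside 2.37% of all genes higher and 7.51% lower. Mmd2 levels in radial glia were 44.5, 5.3 and 27.6 CPM.

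Among 10 other Sox genes, Sox5, a SOXD gene of deep-layer neurons, had 88.8, 82.1 and 83.5 CPM in radial glia, 207.7, 154.1 and 475.2 CPM in newborn neurons and 406.0 and 947.4 CPM in maturing neurons labelled E14 and E18. Sox5 thus ran opposite to its relative Sox6 along the lineage. Sox8, a relative of Sox9, had 21.3, 1.0 and 3.5 CPM in radial glia, and Sox13 5.7, 7.0 and 13.4 CPM. The remaining 7 did not reach 5 CPM in any class of the excitatory lineage.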

How the data were processed

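The deposited matrices hold raw UMI counts for each gene in each barcode, made with Cell Ranger 6.0.1 (per the file headers). Per the submitters' processing notes the genome build was mRatBN7.2. Filters before deposit are not given in the sources used here. The members, gene lists and alternatives were chosen with earlier results of these data known. Barcodes with at least 1000 genes and at most 10% mitochondrial UMIs were kept (4444, 5193 and 5690 in label order, from 62740631, 80974234 and 73727823 UMIs). Scrublet (scanpy 1.11.5) scored doublets, and since its own threshold marked only 0.039% of barcodes labelled E16, the highest scores were removed at 0.8% per 1000 cells (158, 216 and 259). Cells were clustered on 2000 variable genes without Sox and tested-list genes, 30 components and 15 neighbours (leidenalg 0.10.2, resolution 1), with no integration. Of 27 clusters, 1 stayed unnamed. Clusters took the class of the highest mean marker fold, from 111 of 112 marker symbols found. The scoring rule was settled after clusters had been seen, and names rest on clusters rebuilt here. CPM are UMIs of a class and library per 1000000, with exact Poisson 95% intervals. Shares carry Clopper-Pearson intervals and ratios the transformed one, with at least 50 cells required. Intervals cover counting error only. The named genes are the 9 members, fixed lists and the 3 most alike genes per member, some of which are not reported here. The computation was tested on simulated data. Alternatives covered filters, doublet rates, clustering, scaling, weighting, pseudocounts and minimum levels. Values and figures were made with scipy 1.17.1 and matplotlib 3.10.9 in Python 3.11.15.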

Additional observations from a re-analysis of the deposited data

Results flagged for a closer look

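Ratios between libraries with opposite directions in radial glia and newborn neurons were singled out where both counting intervals exclude 1. The difference between the classes was not tested, because each label has 1 library. Sox2 in the library labelled E16 over that labelled E14 had a ratio of 0.576 in radial glia and 1.74 in newborn neurons. Labelled E18 over E14, Sox2 had 0.866 in radial glia and 1.45 in newborn neurons. The neuron levels behind these ratios, 12.9 to 22.4 CPM, lie above the 5.25 CPM (3.33 to 7.87) of Sox2 in erythroid cells. Endothelial, mural and microglial cells had 19.4 CPM, from 41 UMIs in 3 of 91 cells. With doublets removed at 2 times the rate, the log2 ratio in newborn neurons became -0.38 in the comparison of E16 with E14 and -0.28 in that of E18 with E14.

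Sox11 labelled E16 over E14 had a ratio of 1.62 in radial glia and 0.824 in newborn neurons, and labelled E18 over E16 it had 0.698 and 1.11. With no doublets removed, the log2 ratio of E16 over E14 in radial glia was -0.34. With each library clustered on its own, that in newborn neurons was 0.08. Sox21 labelled E18 over E14 had a ratio of 0.718 in radial glia and 1.81 in newborn neurons, where its levels were only 3.38 and 1.87 CPM. Both lie inside the interval of endothelial, mural and microglial cells (0.516 to 4.85 CPM), so the ratio in neurons is not read as a difference.

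The cells left unnamed are outside the comparisons of classes. Those labelled E16 (388 cells of cluster 16, led by Fgf17, Fgf8 and Zic4) had Sox2 at 402 CPM and Sox9 at 260 CPM, above the 19.4 and 11.8 CPM of endothelial, mural and microglial cells.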

How the results depend on the processing

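Of 318 recomputed values of 24 counts, 21 moved. Small changes of a count above 0, such as from 2 to 3, were not called a move and need not be listed here. The count of progenitor genes apart between radial glia and newborn neurons stayed at 6 wherever it could be computed. That of SoxC genes stayed at 2, except labelled E14, where Sox12 made it 3 with 0.1 CPM added or median-of-ratios scaling. With at least 2000 genes and at most 5% mitochondrial UMIs, 9 radial glia labelled E16 and 46 newborn neurons labelled E14 were left, 2868 cells labelled E16 stayed unnamed and 322 cells labelled E14 remained, so 12 values could not be given. Over all kept cells this filter gave 0 members higher in the library labelled E16 than E14 (against 6), 1 lower (against 3) and 0 higher in that labelled E18 than E14 (against 5). There Sox2 and Sox9 in newborn over maturing neurons labelled E18 turned to -0.63 and -0.17 (log2). Members lower in radial glia labelled E16 than E14 numbered 0 at Leiden resolution 0.5 and 2 when libraries were clustered separately (against 1). In newborn neurons labelled E16 over E14, 0 were higher with doublets removed at 2 times the rate, resolution 0.5, 10 CPM added or a minimum of 20 CPM, and 2 with separate clustering (against 1). In the same cells 2 were lower with at least 500 genes and at most 20% mitochondrial UMIs and 0 with separate clustering (against 1). Labelled E18 over E14, 0 were higher with that wider cell filter, doublets at 2 times the rate, resolution 2, 10 CPM added or a minimum of 20 CPM (against 1). Labelled E18 over E16, 1 was higher at resolution 0.5 (against 0). Over all kept cells labelled E18 over E16, 2 were higher with the wider cell filter, doublets at 2 times the rate or 0.1 CPM added (against 1). Where cell counts do not show it, the cause was not tested. Alternatives over all kept cells were chosen after seeing the data. Ratios of single members were recomputed for the classes of the excitatory lineage only, not over all kept cells. Of 75 such ratios past 2-fold among 189, 12 lost it in at least 1 alternative and 2 changed sign. No paired analysis was possible because each label has 1 library and no replicate number. Few UMIs were counted for Sox12 and for the progenitor genes in neurons, which widens their intervals.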
